A study of Mus musculus with 4 samples.

Results

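The alarmin receptor genes examined here encode the receptors for IL-33, IL-25, TSLP, and IL-18 and the first proteins that carry their signals. They were taken by gene symbol from a fixed list of 10 genes, all of which were present among the 27179 genes of the deposited table. The members were Il1rl1 and Il1rap for IL-33, Il17rb and Il17ra for IL-25, Crlf2 for TSLP, Il18r1 and Il18rap for IL-18, and the shared adaptors Myd88, Irak4, and Traf6. Group 2 innate lymphoid cells (ILC2s), lymphocytes that lack antigen receptors and make type 2 cytokines, had been sorted as CD45.2+Lin-CD127+KLRG1+ cells from the large intestine of WT C57BL/6J mice, whose age the study's methods give as 6 to 8 weeks in 1 place and as 6 to 14 weeks in another. All cultures received 10 ng/mL each of IL-33, IL-25, IL-7, and IL-2 over 5 days, which include 2 of the 4 ligands but neither TSLP nor IL-18. Cells then received 100 μM deoxycholic acid (DCA), a secondary bile acid, or served as controls, and each treatment had 2 RNA-Seq libraries. The controls are called vehicle here, although the labels say only Control and the study's RNA-Seq methods name no vehicle. The time in DCA is 16 hours in the text deposited with the data and 24 hours in the methods of the study. The number of mice behind a library was not given in the sources used here, and nothing in the labels says whether libraries came from separate cultures, so p-values measure only the spread between these libraries.

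Alarmins are cytokines that damaged or alerted epithelium releases and that switch on ILC2s. IL-33 binds ST2, the product of Il1rl1, which then recruits the accessory chain encoded by Il1rap. IL-25 is bound by the chains from Il17rb and Il17ra, and TSLP by the Crlf2 product together with the IL-7 receptor chain from Il7r. The IL-33 and IL-18 receptors signal through MyD88 and the kinase IRAK4 to the ubiquitin ligase TRAF6, which the IL-25 receptor also uses, and the TSLP receptor signals through JAK kinases instead.

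Il1rl1 (Entrez gene 17082, chromosome 1, 40404864 to 40465418 on GRCm38.p6) lies in a cluster of receptor genes on the plus strand, and Il18r1 begins 133 bases after it, with Il18rap 14507 bases further on. GENCODE M21 lists 5 coding transcripts of Il1rl1. Of these, 2 encode the membrane receptor of 567 residues, 2 encode a protein of 337 residues, the length of the soluble decoy form, and 1 encodes 65 residues. The counts cover the whole gene, so membrane and soluble forms could not be told apart. The sequences below are the 250 bases before annotated starts (RefSeq, GRCm38.p6), read on the plus strand. The Il1rl1 windows, chr1:40429320-40429569 and chr1:40439379-40439628, are shown because they precede annotated starts of the member with the highest level. Which of these starts the reads came from cannot be read from counts of the whole gene. In GENCODE the transcript that begins at the distal start encodes 337 residues, and one that begins at the end of the proximal window encodes 567. Another, which begins shortly after the proximal window, at 40439776, also encodes 337. The windows therefore do not sort the membrane and soluble lengths. Distal and proximal give only the order of these windows, which both lie inside the RefSeq span given above. The Il18rap window, chr1:40515112-40515361, is shown because it is a neighbor in the same cluster at a far lower level. Capitals mark the letters AGATAA as well as AGATAG, together with TGATAA as well as TGATAG, on either strand, the core recognized by GATA factors such as GATA3.

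Il1rl1 distal start: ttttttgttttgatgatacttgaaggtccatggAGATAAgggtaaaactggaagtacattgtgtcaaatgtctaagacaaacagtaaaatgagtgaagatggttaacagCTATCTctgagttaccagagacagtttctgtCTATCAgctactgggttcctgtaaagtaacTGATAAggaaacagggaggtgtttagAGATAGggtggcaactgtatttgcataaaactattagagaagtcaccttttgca
Il1rl1 proximal start: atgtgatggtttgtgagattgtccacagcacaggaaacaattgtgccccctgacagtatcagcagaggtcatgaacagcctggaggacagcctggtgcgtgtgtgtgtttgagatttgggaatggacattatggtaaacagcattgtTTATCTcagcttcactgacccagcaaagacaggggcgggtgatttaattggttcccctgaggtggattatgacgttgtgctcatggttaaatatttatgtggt
Il18rap: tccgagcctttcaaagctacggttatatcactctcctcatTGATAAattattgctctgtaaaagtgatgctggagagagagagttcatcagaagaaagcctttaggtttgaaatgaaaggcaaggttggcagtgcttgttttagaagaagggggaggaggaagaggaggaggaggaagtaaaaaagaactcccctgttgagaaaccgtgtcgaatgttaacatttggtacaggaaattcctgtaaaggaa

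The distal Il1rl1 window held 5 matches that did not overlap one another, the proximal window held 1, and the Il18rap window held 1. Among all 32851 RefSeq promoter windows of the same length, 26.5% held at least 1 match and 14 windows (0.0426%) held 5 or more. A match describes letters and was not tested as a binding site. Matches were not compared with levels, and the window of Il1r2, higher per kilobase than Il1rl1 in the same cluster, is not shown. Gata3 RNA was at 840.1 and 657 CPM (counts scaled to a common library size) with vehicle and at 600.03 and 824 CPM with DCA, so its treatments overlapped.

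The table held whole-number read counts, with sums of 35838342 and 26564059 for vehicle and of 32102232 and 244165712 for DCA (replicates 1 and 2). The second DCA library was 9.19 times as deep as the shallowest, and the 10 genes took between 0.0775% and 0.115% of each library. Levels are given as CPM after TMM scaling, which adjusts for library size and composition, and all 10 members passed the filter of a mean of at least 1 CPM, as 11184 genes did. A count of 0 allows up to 3 counts, or 0.0125 to 0.115 CPM depending on the library, for counting error only. Of 10 ILC2 markers, 9 were above 30 CPM in every library, whereas Thy1 had between 0 and 137 counts.

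**Figure D1:**
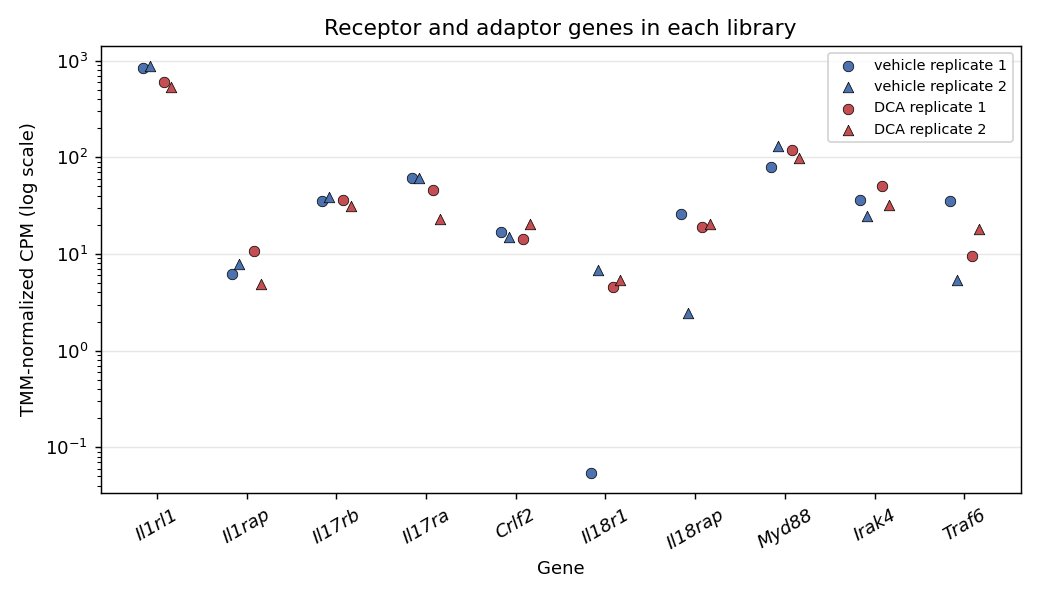
TMM-normalized CPM on a log scale for the 10 genes, with 1 point per library (blue, vehicle; red, DCA; circles, replicate 1; triangles, replicate 2). Both DCA libraries lie below both vehicle libraries for Il1rl1 and Il17ra, and the lowest point is Il18r1 in vehicle replicate 1, at 0.0547 CPM.

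Compared with vehicle, DCA gave no change in any of the 10 genes that passed a threshold of 0.05 on the adjusted p of edgeR's quasi-likelihood test, and 0% of the 11184 genes tested did. At an unadjusted p under 0.05 there was 1 member, Il1rl1, against 4.27% of all genes tested, 478 in number. With DESeq2 on the same genes, 126 genes had an adjusted p under 0.05 and again none was a member. Treatments were separate, without overlap, for 2 members, Il1rl1 and Il17ra, both lower with DCA. Such separation was seen for 33.3% of all genes tested, with both DCA libraries lower for 14.7% and both higher for 18.6%. The median log2 fold change of the 10 genes was 0.083, with 6 above and 4 below 0, and that of all genes tested was 0.0080. The median of the 10 genes lay between -0.13 and 0.079 when single libraries were dropped, so it has no stable sign.

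Il1rl1, which encodes the IL-33 receptor chain ST2, had 30443 and 22952 counts in the vehicle libraries against 19339 and 128222 after DCA. Scaled to library size these are 833 and 877 CPM against 599 and 533 CPM, so that both DCA libraries were below both vehicle libraries and libraries of 1 treatment lay close together. The mean was 855 ± 31.4 CPM (SD, n = 2) with vehicle and 566 ± 46.2 CPM (SD, n = 2) with DCA. This gave a log2 fold change of -0.60 (standard error 0.091), a level 0.662 times that of vehicle, and edgeR's quasi-likelihood test across all genes gave an adjusted p = 0.999 (unadjusted p = 0.0229, Benjamini-Hochberg adjustment). Among 8 alternatives with a test, the adjusted p was lowest with DESeq2 (0.0703) and highest with the replicate block (1), and the unadjusted p was under 0.05 in all 8. When single libraries were dropped the log2 fold change stayed between -0.69 and -0.51. The exact permutation test (two-sided) gave 0.333 for the CPM, the smallest p that 2 libraries against 2 allow. In bulk libraries such as these, fewer cells of a type and less RNA per cell cannot be told apart.

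Il1rap, which encodes the accessory chain that ST2 needs for signaling, was at 6.24 and 7.87 CPM in the vehicle libraries against 10.7 and 4.92 CPM after DCA. The DCA libraries enclosed both vehicle libraries, and the log2 fold change was 0.14 (standard error 0.51, unadjusted p = 0.880 in edgeR's test across all genes). Without DCA replicate 1 the value was -0.53, and without DCA replicate 2 it was 0.60. Per kilobase of exon, Il1rl1 exceeded Il1rap 220.02- and 184-fold with vehicle and 92.4- and 179-fold with DCA. The size of this ratio depends on the gene model, since with the longest transcript of each gene in place of all exons it lay between 47.8 and 114. Both DCA libraries were below both vehicle libraries in this ratio, but DCA replicate 2 was close to vehicle replicate 2, and the difference in log2 ratio was -0.65 (standard error 0.49). Without DCA replicate 1 it was -0.17. In GENCODE, 4.86% of the Il1rap exon bases are shared with an antisense gene, and strand use in the counting is not known.

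Of the IL-25 receptor chains, 1 overlapped between treatments and 1 did not. Il17rb, which encodes the chain that binds IL-25, was at 35.5 and 39.02 CPM in the vehicle libraries against 36.5 and 31.4 CPM after DCA. These libraries overlapped and spanned a narrow range, with a log2 fold change of -0.13 (standard error 0.12) and an unadjusted p of 0.728 in edgeR's test across all genes. Of the Il17rb exon bases, 3.80% are shared with Actr8 on the other strand. Il17ra, the signaling chain shared with other IL-17 receptors, was at 61.1 and 61.7 CPM in the vehicle libraries against 45.97 and 23.1 CPM after DCA. Both DCA libraries were below both vehicle libraries, which were nearly equal, and the DCA libraries were 1.99-fold apart. The mean of Il17ra was 61.4 ± 0.441 CPM (SD, n = 2) with vehicle and 34.5 ± 16.2 CPM (SD, n = 2) with DCA. This gave a log2 fold change of -0.83 (standard error 0.48), and edgeR's quasi-likelihood test across all genes gave an adjusted p = 0.999 (unadjusted p = 0.0968, Benjamini-Hochberg adjustment). The size rests on DCA replicate 2, since the log2 fold change was -0.42 without it, and -1.42 with it as the lone DCA library.

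A ratio of 2 genes within a library does not depend on how libraries are scaled. Per kilobase of exon, Il1rl1 exceeded Il17rb 12.6- and 12.1-fold with vehicle and 8.81- and 9.12-fold with DCA. Libraries of 1 treatment were nearly identical in this ratio and the treatments did not overlap, as held for 33.3% of single genes tested. The log2 ratio was 0.46 lower with DCA than with vehicle (a difference of -0.46, standard error 0.039), and it lay between -0.49 and -0.43 with any 1 library left out. Il17rb exceeded Il17ra 1.36- and 1.48-fold with vehicle and 1.86- and 3.19-fold with DCA, a difference in log2 ratio of 0.78 (standard error 0.39) that was 0.39 without DCA replicate 2 and 1.17 from DCA replicate 2 alone. Each of these differences had a two-sided exact permutation p of 0.333, the smallest possible here, and 6 such ratios were computed, so none can pass a threshold of 0.05. The ratios that did not overlap each hold Il1rl1 or Il17ra, which were separate by themselves, so they are no separate result. The share of all gene pairs that do not overlap was not computed.

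**Figure D2:**
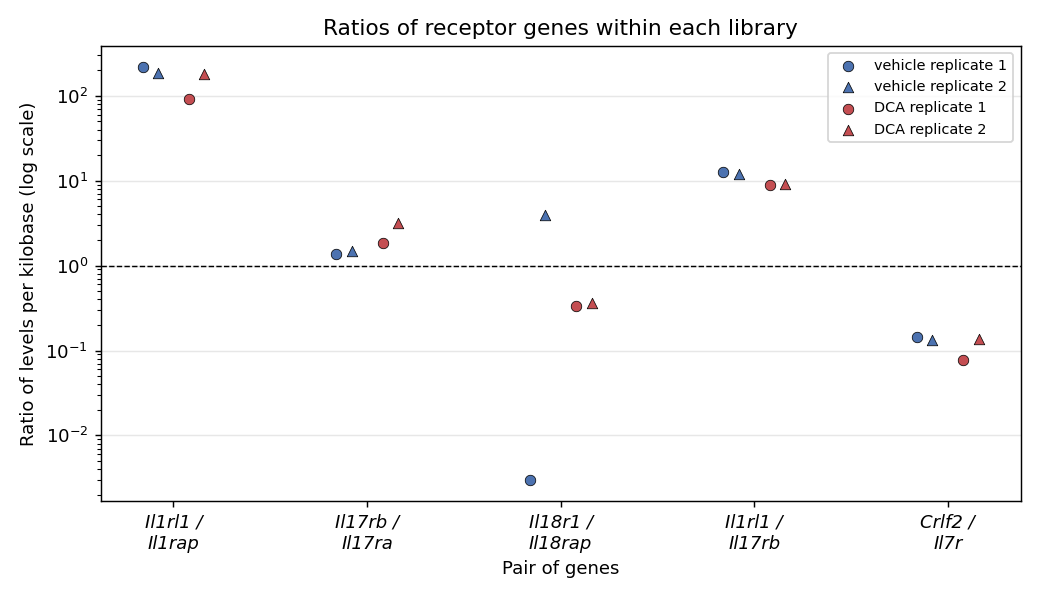
Ratio of levels per kilobase of exon between 2 receptor genes within each library, on a log scale, with the dashed line at equal levels (blue, vehicle; red, DCA; circles, replicate 1; triangles, replicate 2). The Il1rl1 to Il17rb ratio is 12.1 or more with vehicle and 9.12 or less with DCA, while the Il18r1 to Il18rap ratio runs from 0.00295, which rests on 2 counts of Il18r1, to 3.94 within vehicle alone.

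Crlf2, the chain that binds TSLP, was at 17.1 and 14.9 CPM in the vehicle libraries against 14.4 and 20.5 CPM after DCA. The DCA libraries lay on both sides of the vehicle libraries, and the log2 fold change was 0.13 (standard error 0.26, unadjusted p = 0.826 in edgeR's test across all genes). Without DCA replicate 2 the value was -0.15. Its partner Il7r encodes CD127, one of the proteins used to sort all of these cells, and also forms the IL-7 receptor. Il7r was at 374 and 351 CPM in the vehicle libraries against 583 and 461 CPM after DCA, higher in both DCA libraries by 0.53 on the log2 scale (standard error 0.17). For Il7r, edgeR's quasi-likelihood test across all genes gave an adjusted p = 0.999 (unadjusted p = 0.0531, Benjamini-Hochberg adjustment). Per kilobase, Crlf2 stood at 0.0772 to 0.143 times Il7r, and this ratio overlapped between treatments.

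The IL-18 receptor genes varied more within vehicle than between treatments. Il18r1, which encodes the chain that binds IL-18, had 2 and 180 counts in the vehicle libraries against 146 and 1279 after DCA. On the CPM scale Il18r1 was at 0.0547 and 6.88 with vehicle and at 4.52 and 5.32 with DCA. Vehicle replicate 1 was thus below vehicle replicate 2 by a ratio of 126, with a 95% exact binomial interval of 34.3 to 1046 since it rests on 2 counts, and the DCA libraries lay between them. Il18rap, its accessory chain, had 951 and 64 counts with vehicle, or 26.01 and 2.45 CPM, and 18.8 and 20.7 CPM with DCA. Here the order of the vehicle libraries was the opposite, with replicate 1 10.6-fold above replicate 2, and the DCA libraries again lay between them. The log2 fold changes were 0.51 for Il18r1 (standard error 1.45) and 0.47 for Il18rap (standard error 1.49), with unadjusted p of 0.800 and 0.659 in edgeR's test across all genes. The Il18r1 value was -0.51 without vehicle replicate 1, the Il18rap value -0.40 without vehicle replicate 2, and with the replicate block they were 2.79 and 1.29. With this spread no direction could be given for either gene.

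**Figure D3:**
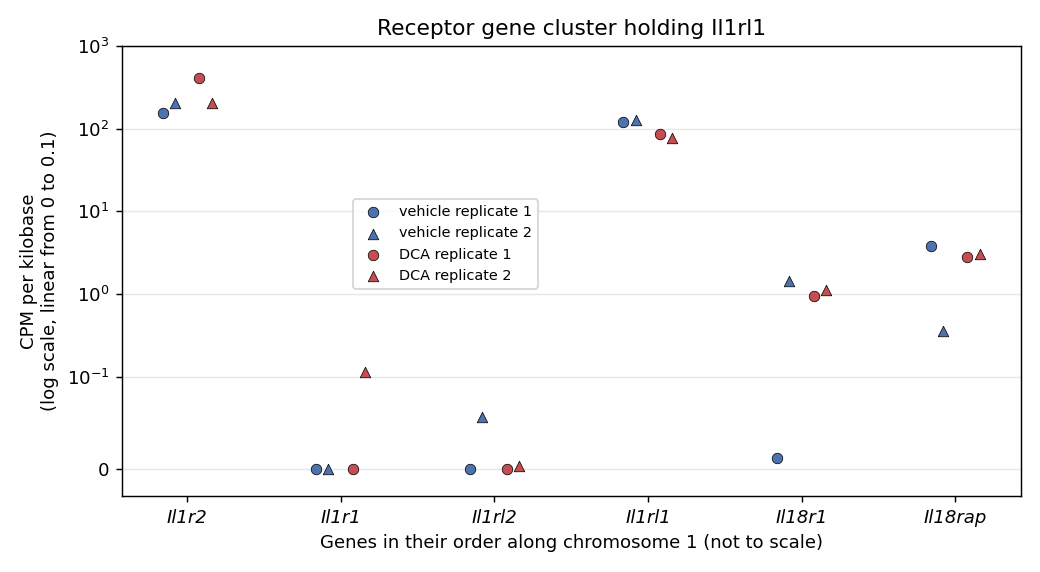
CPM per kilobase of exon for 6 receptor genes in their order along chromosome 1, on a log scale that is linear from 0 to 0.1, with 1 point per library (blue, vehicle; red, DCA). Il1r2 and Il1rl1 are at 77.4 or more in every library, Il18r1 and Il18rap are at 3.85 or less, and Il1r1 and Il1rl2 are at or near 0.

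Within the chromosome 1 cluster, levels per kilobase thus differed widely between neighbors. Il1r2, which encodes a decoy receptor for IL-1, exceeded Il1rl1 per kilobase and was at 298 and 394 CPM in the vehicle libraries against 782 and 395 CPM after DCA. For Il1r2 the log2 fold change was 0.77 (standard error 0.53, unadjusted p = 0.0757 in edgeR's test across all genes), and DCA replicate 2 was practically level with vehicle replicate 2. Il1r1, the signaling IL-1 receptor, had 0 counts in 3 libraries and 176 in DCA replicate 2, and Il1rl2, the IL-36 receptor chain, had 10 counts or fewer in every library. Averaged over the 4 libraries, Il1rl1 was 118-fold above Il18r1 per kilobase and 40.95-fold above Il18rap. By library, the ratio to Il18r1 was 10636 and 89.1 with vehicle and 92.6 and 70.0 with DCA, and the first rests on 2 counts of Il18r1. Il18rap itself was at 3.85 and 0.362 CPM per kilobase with vehicle and at 2.79 and 3.06 with DCA.

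Among the shared signaling proteins, Myd88, which encodes the adaptor that binds the receptor tails, was at 79.7 and 132 CPM in the vehicle libraries against 120.2 and 97.5 CPM after DCA. Both DCA libraries lay between the vehicle libraries, for a log2 fold change of 0.040 (standard error 0.39). GENCODE places 11.3% of the Myd88 exon bases on exons of Acaa1a, which lies on the other strand. Irak4, the kinase that MyD88 recruits, was at 35.97 and 25.03 CPM in the vehicle libraries against 50.98 and 32.2 CPM after DCA, with a log2 fold change of 0.45 (standard error 0.41). Treatments overlapped for Irak4, and the value was 0.076 without DCA replicate 1. Of the Irak4 exon bases, 7.87% are shared with Twf1 on the other strand. Traf6, the ubiquitin ligase on which these receptors converge, was at 35.2 and 5.39 CPM in the vehicle libraries against 9.44 and 18.3 CPM after DCA. The vehicle libraries enclosed the DCA libraries, and the log2 fold change of -0.55 (standard error 1.33) was 1.34 without vehicle replicate 1 and -1.34 without vehicle replicate 2. For these 3 genes p ran from 0.337 to 0.907, unadjusted, in edgeR's test across all genes.

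**Figure D4:**
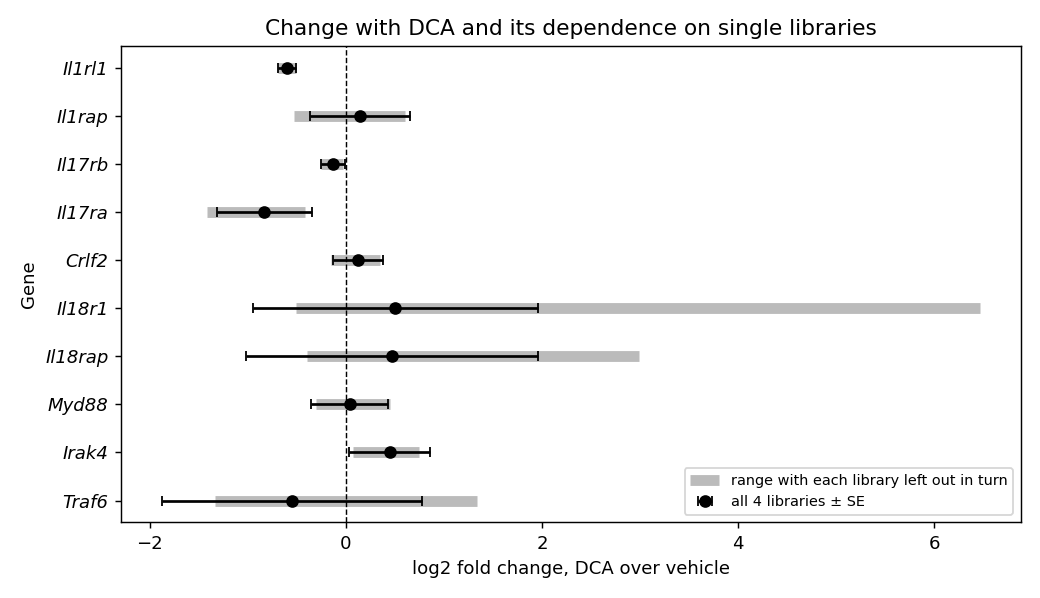
Log2 fold change of DCA over vehicle for the 10 genes (black points; error bars, standard error on the log2(CPM + 1) scale) and the range of the fitted value with each library left out in turn (grey bars). Il1rl1, Il17rb, Il17ra, and Irak4 keep their sign throughout, and the bars of the other 6 genes cross 0.

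Vehicle libraries differed by more than 5-fold in 3 of the 10 genes, Il18r1, Il18rap, and Traf6, and in 15.6% of all genes tested. DCA libraries differed by more than 5-fold in 0 of the 10 genes and in 7.90% of all genes tested. Ordered by mean level per kilobase, the genes ran from Il1rl1, at 103 CPM per kilobase, through Myd88 (41.7), Crlf2 (11.2), Il17rb (9.61), Irak4 (7.18), Il17ra (5.53), Il18rap (2.52), Traf6 (2.17), and Il18r1 (0.870) to Il1rap (0.654). Only the first 2 steps of that order, from Il1rl1 to Myd88 and from Myd88 to Crlf2, held in all 4 libraries. Neighbors from Crlf2 downward changed places in at least 1 library and do not differ beyond their spread. By the root mean square difference of centered log2(CPM + 1) over the 4 libraries, the genes most like Il1rl1 were Dcaf8, Zcchc10, and Agpat5, at 0.0277, 0.0293, and 0.0305, and those most like Il17rb were Gm10052, Cers5, and Ipmk, at 0.0102, 0.0196, and 0.0235.

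Beyond the receptors, 61 other genes of the pathway were listed, of which 39 were expressed at a mean of at least 1 CPM. None of the 39 passed a threshold of 0.05 on the adjusted p of edgeR's quasi-likelihood test. At an unadjusted p under 0.05, 2 were higher and 1 was lower with DCA, against the 4.27% of all genes given above. Of the 39, 8 had both DCA values above both vehicle values and 5 had both below, beside 18.6% and 14.7% of all genes tested. The median log2 fold change was -0.069.

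Of 20 genes of the MyD88, IRAK, and TRAF signaling chain, 18 were tested, with a median log2 fold change of -0.015. Traf1, which encodes a TRAF protein that binds TRAF2, was at 59.8 and 51.5 CPM in the vehicle libraries against 104 and 87.8 CPM after DCA. Both DCA libraries were higher, with a log2 fold change of 0.78 (standard error 0.16) and an unadjusted p of 0.0319 in edgeR's test across all genes. Traf5, a relative of TRAF2 used by TNF family receptors and by IL-17 receptors, was without counts (0) in vehicle and had 119 and 643 counts with DCA, or 3.68 and 2.67 CPM. With 3 counts allowed in each vehicle library, the DCA mean of Traf5 stood 32.3-fold above that limit. For DCA replicate 2 the bound was 27.2-fold. If both mates of each read pair were counted, these bounds become 16.2- and 13.6-fold. They cover counting error only, and vehicle libraries differed by more than 5-fold in 15.6% of all genes tested. The bounds therefore set no lower limit on an effect of DCA. For Traf5, edgeR's quasi-likelihood test across all genes gave an adjusted p = 0.999 (unadjusted p = 0.0223, Benjamini-Hochberg adjustment). Irak1, the kinase that IRAK4 phosphorylates, was at 82.2 and 76.7 CPM in the vehicle libraries against 51.7 and 56.5 CPM after DCA, lower in both DCA libraries (log2 fold change -0.55, standard error 0.080, unadjusted p = 0.0983 in edgeR's test).

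Of 14 listed negative regulators, 13 were tested, with a median log2 fold change of -0.071. Otud7b, which encodes a deubiquitinase that acts on TRAF3, was at 33.3 and 25.6 CPM in the vehicle libraries against 11.7 and 9.72 CPM after DCA. Both DCA libraries were lower, with a log2 fold change of -1.46 (standard error 0.22) and an unadjusted p of 0.0267 in edgeR's test across all genes. Irak3, the inhibitory IRAK family member, was at 196 to 272 CPM in the 4 libraries and overlapped between treatments. Tnfaip3, which encodes the NF-κB inhibitor A20, had 1296 and 2 counts in the vehicle libraries against 288 and 4585 after DCA. The ratio of the vehicle libraries of Tnfaip3 was 464 once scaled, with a 95% exact binomial interval of 128 to 3834 since it rests on 2 counts, and the DCA libraries lay between them. Of the 5 genes of TSLP signaling, all were tested, 0 had an unadjusted p under 0.05, and the median log2 fold change was -0.19. Of 9 relatives of the IL-1 and IL-17 receptors, only Il1r2 and Sigirr were tested. Of 13 ligand genes, 7 had 0 counts in all 4 libraries, Tslp and Il18 among them, and Il33 was the only one tested, at 0 and 3.55 CPM in the vehicle libraries against 3.75 and 2.04 CPM after DCA.

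**Figure D5:**
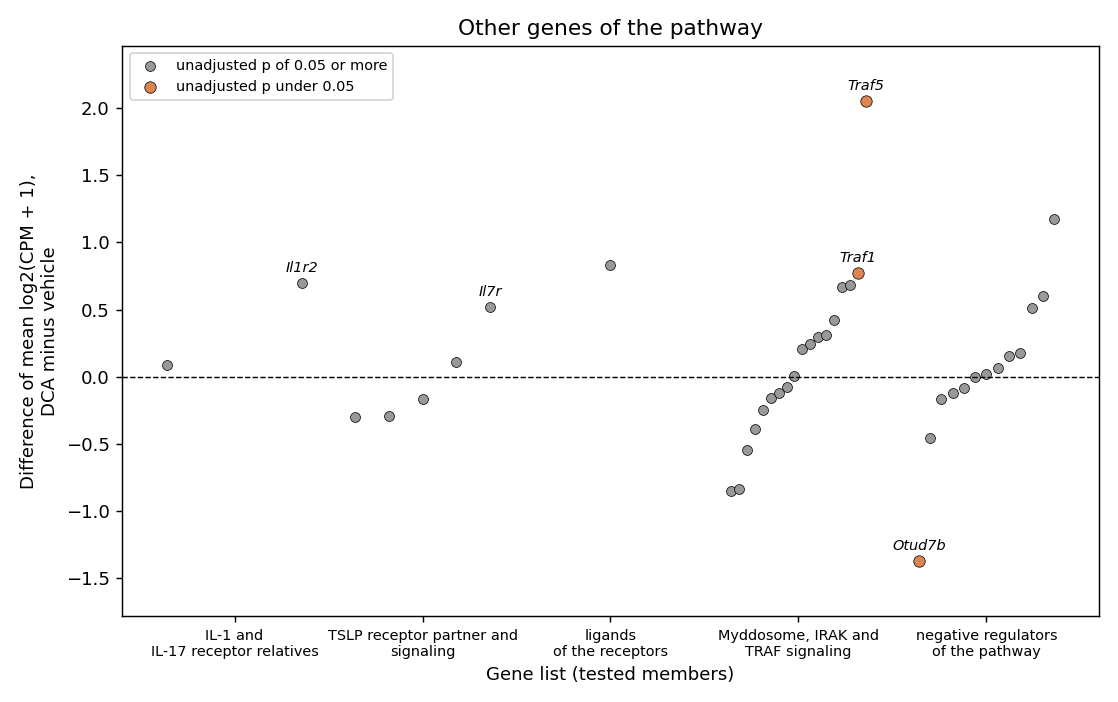
Difference of mean log2(CPM + 1), DCA minus vehicle, for the 39 tested pathway genes, grouped by list, with each point 1 gene (orange, unadjusted p under 0.05). Points spread on both sides of 0 in the 2 largest lists, and the orange points are Traf5, Traf1, and Otud7b.

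Il1rl1 and its pathway are also used by mast cells, basophils, regulatory T cells, and other lymphocytes. Of the mast cell and basophil markers, Fcer1a, Ms4a2, and Cma1 were at 0 counts in all 4 libraries, and the list, summed over 6 genes, was at 284 to 363 CPM with vehicle and 159 to 302 CPM with DCA, nearly all of it Kit. The basophil protease gene Mcpt8 had 128 and 121 counts in the vehicle libraries against 146 and 0 after DCA, or 3.50 and 4.62 against 4.52 and 0 CPM. The mast cell protease gene Cpa3 had 0 counts in both vehicle libraries against 6 and 84 after DCA, or 0.186 and 0.349 CPM. Foxp3 had 65 counts in DCA replicate 2, the deepest library, and 0 elsewhere, and those 65 counts are 0.270 CPM. Cd4, Cd8a, Pax5, Csf1r, C1qa, Il22, Il23r, Ncr1, Klrb1c, Klrk1, and Krt20 were at 0 in every library. The 10 ILC2 markers summed to 9605 to 10072 CPM with vehicle and 10413 to 10415 CPM with DCA. Among them Klrg1, whose product was a gate of the sort, was at 688 and 678 CPM in the vehicle libraries against 463 and 356 CPM after DCA (unadjusted p = 0.0154 in edgeR's test across all genes). Il2ra went the other way, at 1075 and 1231 CPM in the vehicle libraries against 1615 and 1585 CPM after DCA (unadjusted p = 0.0459 in edgeR's test). Of the 10 ILC2 markers, 7 had a log2 fold change above 0 and 3 had one below. Some summed marker levels were, as Il1rl1 was, lower in both DCA libraries, a pattern seen for 14.7% of all single genes tested. The 8 T cell markers, 6 of them with counts, summed to 26.6 to 27.6 CPM with vehicle and 19.5 to 22.3 CPM with DCA. Most of this sum was Cd3g (11.9 and 25.6 against 21.3 and 10.5 CPM) and Cd247 (13.1 and 0 against 0.588 and 7.95 CPM). Each of these genes overlapped between treatments, so the separation belongs to the sum alone. The 5 B cell markers, 3 with counts and nearly all Cd79b, summed to 47.3 to 55.2 CPM with vehicle and 37.8 to 44.5 CPM with DCA. The 6 macrophage and monocyte markers, 4 with counts and nearly all Cd68, summed to 23.998 to 24.7 CPM with vehicle and 7.31 to 10.2 CPM with DCA. The 6 markers of ILC1s and NK cells, 4 with counts and nearly all Gzmb, summed to 9757 to 13341 CPM with vehicle and 5620.5 to 8262 CPM with DCA. In that list Tbx21 was at most 0.383 CPM, Ifng at most 0.137 CPM, and Eomes at most 0.0250 CPM. That sum is thus a level of Gzmb and not a measure of ILC1s or NK cells. Epithelial markers, 5 of 6 with counts, summed to 8.29 to 13.5 CPM with vehicle and 7.74 to 9.01 CPM with DCA, and ILC3 markers, 2 of 6 with counts, summed to at most 1.49 CPM. The part of these sums in the level of Il1rl1 was not tested.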

How the data were processed

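RNA-Seq was done on cultured ILC2s of the mouse large intestine, 2 libraries with vehicle and 2 with DCA. SMART-Seq cDNA was sequenced as read pairs. Per the submitters' processing notes, the authors used Cutadapt 1.9 for read filtering and HISAT2 2.2.1 for alignment to mm10. The authors deposited whole-number counts per gene under a name that refers to FPKM. The counting tool, annotation, and strand setting are not given in the sources used here. Genes with 2 counts outnumbered those with 1 in every library (484 against 253 in vehicle replicate 1), so both mates of a pair may have been counted, and limits based on 3 counts would then be higher and fold bounds against 0 lower. The binomial intervals for Il18r1 and Tnfaip3 took counts as independent and would then be wider than printed. Intervals and fold bounds against 0 cover counting error only. Columns were matched to samples by name, and groups come from the treatment labels.

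Counts were tested with edgeR 4.0.16 in R 4.3.3 by its two-sided quasi-likelihood test after TMM scaling. Genes had to average 1 CPM or more, and p-values were adjusted by Benjamini-Hochberg over the 11184 that did. The standard error of a gene was computed from log2(CPM + 1) values, with a pseudocount of 1, and that of a ratio from its log2 ratios. For a gene it thus belongs to the difference of mean log2(CPM + 1), not to edgeR's fitted fold change printed beside it. That difference was -0.098 for Traf6, 1.03 for Il18r1, and 1.10 for Il18rap, where the fitted values were -0.55, 0.51, and 0.47. The 1275 rows without a symbol, at most 0.173% of a library, were kept. Levels per kilobase used GENCODE M21 exon unions, positions and promoter windows RefSeq on GRCm38.p6, the same assembly as mm10. The code of the fit was checked on simulated data with known fold changes. Recovery was required only at a small set spread, so this check does not speak to power at the spread of these libraries.

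The members, lists, and tests were chosen with earlier results of these data known. Named were the 10 members, listed pathway genes with an unadjusted p under 0.05, Il7r, the cluster neighbors, and the 3 genes most like Il1rl1 and Il17rb. Gata3, Irak1, Irak3, Tnfaip3, Il33, and the markers named singly were added after their values were seen. Some marker genes are not reported here by name. Alternatives were scaling by median of ratios or by total counts, no filter, a mean of at least 5 CPM, DESeq2 1.42.0, limma-trend (limma 3.58.1), the replicate number as a block, thinning of libraries to the shallowest, and leaving out each library.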

Additional observations from a re-analysis of the deposited data

How the results depend on the processing

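No member passed an adjusted p of 0.05 under any of the 8 alternatives that give a test. Across all genes, 36 passed it without a filter and 126 with DESeq2, against 0 under the other 6. The unadjusted p was under 0.05 for 847 genes without a filter, for 784 with DESeq2, and for 332 to 517 under the others. Without a filter 2 members had an unadjusted p under 0.05, Il1rl1 and, at 0.0496, Il17ra. With the replicate block, 450 genes had an unadjusted p under 0.05, 0 passed after adjustment, and Il1rl1 had a log2 fold change of -0.60. The labels of same-numbered libraries share a number and do not say whether the libraries shared a culture or mouse. The correlation of their deviations across genes was 0.0197, which cannot settle this with 2 libraries per treatment. No pairing was assumed in the main fit, and the block moved Il18r1 to 2.79 and Traf6 to -0.070. Il18r1 gave no value at a mean of at least 5 CPM.

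When single libraries were dropped, log2 fold changes lay from -0.53 (without DCA replicate 1) to 0.60 for Il1rap, from -0.15 (without DCA replicate 2) to 0.35 for Crlf2, from -0.51 (without vehicle replicate 1) to 6.46 for Il18r1, from -0.40 (without vehicle replicate 2) to 2.99 for Il18rap, from -0.31 (without vehicle replicate 1) to 0.45 for Myd88, and from -1.34 to 1.34 (without vehicle replicate 1) for Traf6. The cause of these turns was not tested, and no p was taken from these fits. The Il18r1 value of 6.46 stands against a vehicle library with 2 counts and is no bound. In the order by length, Il17rb came before Crlf2, and Il1rap before Il18r1, with longest transcripts, and the number of steps held in all libraries was 2 either way.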
